A study of Mus musculus with 18 samples.

Results

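The transcriptome of mouse embryonic stem (ES) cells depleted of Setd2 mRNA was compared with that of the matching hairpin control. The comparison rests on 2 of the 6 RNA-seq libraries of the study, whose 18 samples also hold 12 ChIP-seq samples that were not analysed here. Both libraries come from E14, an ES line of 129/Ola background, cultured on gelatin in GMEM with 15% serum and leukemia inhibitory factor (LIF). The shSetd2 cells carried a pLKO.1 lentiviral hairpin against Setd2 and the shCtrl cells a scrambled hairpin in the same vector. Both were selected with puromycin and harvested on day 4 after selection. The hairpin sequence is not given in the sources used here, and there is 1 library per group. The members are all 29851 RefSeq transcripts of the deposited table, 26439 coding and 3412 non-coding, which belong to 23421 genes. The series as a whole compared wild-type and Eed-mutant cells of another 129/Ola line, E36, as ES cells and as embryoid bodies (EBs), and the wild-type E36 ES library serves below as a second reference without hairpin.

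SETD2 is the enzyme that places the third methyl group on lysine 36 of histone H3 (H3K36me3). It binds the phosphorylated tail of elongating RNA polymerase II, so the mark builds up over the bodies of transcribed genes. Reader proteins with PWWP, chromo or Tudor domains bind H3K36 methylation and bring in DNA methyltransferases, mismatch repair, histone deacetylases and splicing factors, and the mark hinders the Polycomb repressive complex 2 (PRC2), which methylates lysine 27.

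Levels are given as FPKM, which counts fragments relative to transcript length and to the size of the library. A difference is log2(FPKM + 1) in shSetd2 minus that in shCtrl. A gene with an FPKM of at least 1 in either library was counted as expressed, and a difference of at least 1 in size was called higher or lower. With 1 library per group no value has an error and no test was possible, so a call is a statement about these 2 libraries. A gene with several transcripts is represented by its most abundant transcript, and the value of the gene's summed transcripts is given where it differs in call. The FPKM total of shSetd2 was 89.6% of that of shCtrl, and its sequencing depth, estimated from the steps between low values, was 0.753 of that of shCtrl. ES cell identity was checked on 7 markers, all between 70.98 and 2128 FPKM in both libraries. Markers of fibroblasts, trophoblast and endothelium were low. The summed FPKM of 6 fibroblast markers was 10.1 in shCtrl and 11.8 in shSetd2, that of 4 trophoblast markers 5.14 and 6.90, and that of 4 endothelial markers 2.70 and 3.13, with the trophoblast marker Tpbpa listed at 0 in both. Among 4 neuronal markers, Stmn2 and Tubb3 were abundant in both libraries (Stmn2 134 and 97.7, Tubb3 45.9 and 40.4), while the 6 extraembryonic endoderm markers summed to 7.23 and 2.43.

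Setd2 itself (NM_001081340, chr9:110435101-110521137, mm9) had 16.8 FPKM in shCtrl and 2.59 in shSetd2, which is 15.4% of the control level. The difference of -2.31 was the lowest of all genes with at least 5 FPKM in the higher library, small RNA genes and numbered loci aside. In the 4 libraries without a hairpin, Setd2 stood at 20.3 (E36 wild-type ES), 18.1 (the library labelled ES Eed KO), 16.4 (wild-type EBs) and 14.9 (the library labelled EB Eed KO). Only shSetd2 lay apart among the 6 libraries. Within 500 kb on either side of Setd2, 18 of 30 other genes were expressed, with a median difference of -0.25, beside -0.13 over all expressed genes. By the size rule 1 was lower, beside 1.7% of all expressed genes. That gene was Lrrc2 (12.96 and 5.53). The nearest expressed neighbours, Klhl18 on one side (1.98 and 1.78) and Nradd on the other (14.7 and 9.93), stayed within the size rule.

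Most genes kept their level. The median difference over the 12317 expressed genes was -0.13, and 88.7% of them lay within 0.5 of that median. It stands beside the lower FPKM total of shSetd2, and list medians are therefore also given relative to it. By the size rule 87 genes were higher (0.706% of those expressed) and 210 lower (1.7%), a split of 29.3% higher among all calls. After rescaling to equal totals, equal upper quartiles or the median of ratios, the split was between 43.4% and 45.8% higher. Among 11521 coding genes, 42 were higher (0.365%) and 127 lower (1.1%). The 42 higher genes were mostly weak, with a median of 3.62 FPKM in the library where they were higher, against 10.5 for the 127 lower genes. Many of the 42 counted as expressed through shSetd2 alone, and some of the 127 through shCtrl alone. As a yardstick, shCtrl against the E36 wild-type ES library gave 400 higher (3.14%) and 720 lower genes (5.65%) of 12747. That comparison differs in cell line, hairpin and library at once and is no measure of replicate error.

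**Figure D1:**
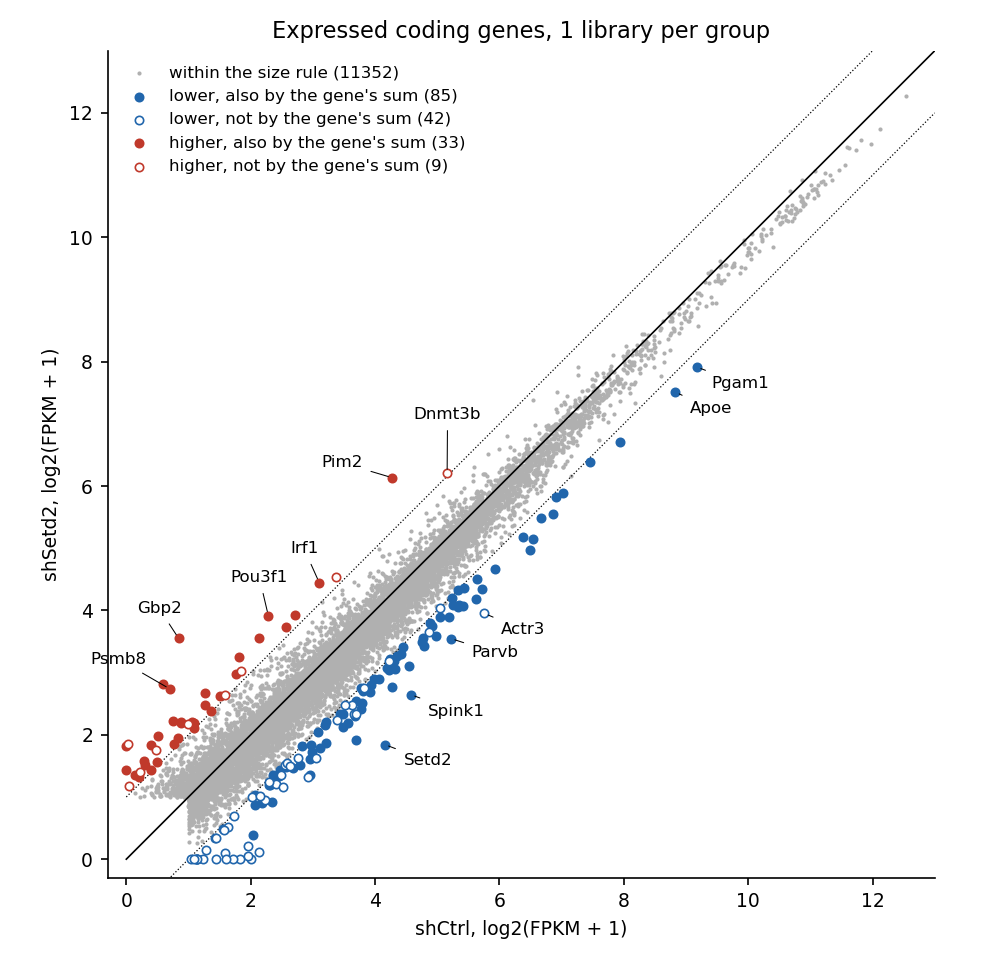
Expressed coding genes as log2(FPKM + 1) in shCtrl (horizontal) and shSetd2 (vertical). The solid line marks equality, the dotted lines a difference of 1 in size, filled points were called both by the most abundant transcript and by the gene's sum, and open points by the transcript alone. Setd2 lies furthest below the line among well expressed genes, and the higher genes sit mostly at low levels.

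Many of these calls did not hold when a gene's transcripts were summed. Of the 169 called coding genes, 104 have 1 transcript and 65 have several, and 51 of the 65 were within the size rule by their sum. Whether transcript use or the assignment of reads to transcripts differed was not tested. A total of 33 higher and 85 lower coding genes were called by both values. On coding transcripts summed per gene, 36 genes were higher (0.309% of 11657) and 98 lower (0.841%). Actr3, which encodes a subunit of the actin-nucleating Arp2/3 complex, is an example. Its top transcript had 53.1 in shCtrl and 14.5 in shSetd2, while its 3 transcripts together had 97.2 and 89.7. Counted by transcript, 192 of 14814 were higher (1.3%) and 402 lower (2.71%).

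Other enzymes of H3K36 methylation did not move with Setd2. Of 7 expressed H3K36 methyltransferases, Setd2 was lower and none was higher, and the median was -0.07. Nsd1, which makes mono- and dimethylation, had 32.7 and 25.1 FPKM (shCtrl first, here and below where 2 values are given). Nsd2, of the same family, had 5.22 and 4.95, and Nsd3 had 3.89 and 3.93. Ash1l, a Trithorax-group methyltransferase, had 3.56 and 3.92, Smyd2 15.1 and 16.4 and Setmar 2.16 and 1.71. These 6 genes differed by -0.37 to 0.11, so none stood at more than 0.25 from the median of all genes.

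The 6 demethylases of H3K36 were all within the size rule, with a median of -0.20. Kdm4c had the largest difference, -0.47 (29.6 and 21.1). Kdm4a (27.9 and 22.5) and Kdm4b (9.72 and 8.31), which also act on trimethylated lysine 9, differed by -0.30 and -0.20. The dimethyl-lysine 36 demethylases Kdm2a (15.9 and 15.3) and Kdm2b (14.6 and 12.5) and the jumonji protein gene Riox1 (11.9 and 11.8) lay between -0.20 and -0.01.

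Of 18 expressed readers of H3K36 methylation 1 was higher and 0 lower, beside 0.706% higher and 1.7% lower over all genes, and the median was -0.09. The higher gene was Dnmt3b (NM_001122997, chr2:153475185-153513466), the de novo DNA methyltransferase whose PWWP domain binds H3K36me3. Its top transcript had 34.7 in shCtrl and 72.7 in shSetd2, which differ by 1.04, and its 9 transcripts summed to 61.6 and 122, a difference of 0.97 that is just under the size rule. E36 wild-type ES cells were at 72.5 by the same transcript, at the level of shSetd2, while the library labelled ES Eed KO, also of the E36 line, was at 36.04, near shCtrl. The related Dnmt3a had 11.01 and 15.1, a difference of 0.43.

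Readers that tie the mark to repair, transcription and acetylation had near equal levels in both libraries. Msh6, the mismatch repair subunit with a PWWP domain, had 149.9 and 130.4, and Psip1, the chromatin tether LEDGF, had 74.5 and 72.9. Morf4l1, the chromodomain protein MRG15 that is linked to splicing and deacetylation, had 189 and 189. Zmynd11, a reader of H3K36me3 on the variant histone H3.3, had 5.06 and 5.74. Brd1 (18.9 and 18.05), Brpf1 (12.9 and 12.1) and Brpf3 (10.1 and 8.93), scaffolds of MOZ-type acetyltransferases, differed by -0.06, -0.09 and -0.16. Hdgf had 309 and 272, Hdgfl2 49.9 and 44.9 and Glyr1 28.7 and 23.6. The smaller PWWP genes Pwwp2a (8.58 and 7.94), Pwwp2b (2.97 and 3.07) and Pwwp3a (15.2 and 14.2) differed by no more than 0.10 in size. The Tudor readers that recruit PRC2 had lower values without passing the size rule. Phf19 had 8.31 and 4.41 (-0.78), Mtf2 42.9 and 28.9 (-0.55) and Phf1 3.12 and 2.18 (-0.37).

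Factors that work beside SETD2 on the elongating polymerase were within the size rule without exception. None of 33 expressed elongation genes was called, and their median of -0.06 was 0.08 above that of all genes. The extremes were Aff1, a scaffold of the super elongation complex (8.54 and 5.397, difference -0.58), and Larp7, which stabilises the 7SK RNA (24.9 and 32.6, 0.38). Ccnt2, the cyclin of the P-TEFb kinase, had 32.2 and 23.01, and Rnf20, which ubiquitinates histone H2B, had 9.704 and 7.42. Of 27 splicing regulators none was called, and the median was -0.03. The widest difference in that list was that of Esrp1, an epithelial splicing factor, at 0.82 (6.91 and 13.01, with 27.9 in E36 wild type). Tra2a (111 and 87.7), Rbfox2 (6.06 and 7.76) and Celf1 (25.4 and 31.5) differed by -0.34, 0.31 and 0.30.

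Chromatin genes of the opposing mark were also within the size rule. None of 12 PRC2 genes was called, and their median was -0.30, or -0.17 relative to all genes (0.15 with E36 wild type as the control). Of the 12, 4 lay above the median of all genes, with Rbbp7 highest at 0.33, while Eed, Ezh2 and Suz12 had lower values in shSetd2. Eed had 127 and 101, Ezh2, the catalytic subunit, 48.2 and 39.5 and Suz12 71.3 and 54.4. Epop, an accessory subunit that binds Elongin, differed most, with 193 in shCtrl and 106 in shSetd2 (-0.86) and 187 in E36 wild type. Of 18 PRC1 genes, 15 other histone methyltransferases and 11 genes of lysine 27 demethylation and acetylation, none was called. Their extremes included Phc2 (9.52 and 15.5), Setd7 (4.97 and 8.99) and the deacetylase gene Sirt1 (31.4 and 17.4), of which Sirt1 differed by -0.82. Among 17 genes of DNA methylation, Dnmt3b was the 1 called, beside 0.706% higher and 1.7% lower over all genes. Tet2, which oxidises methylcytosine, went the other way, with 22.6 in shCtrl and 11.6 in shSetd2 and 11.3 in E36 wild type, a difference of -0.91 that did not pass. Zfp57, which protects imprints, had 74.5 and 46.4, and Uhrf1, which brings Dnmt1 to replicated DNA, 43.8 and 31.7. None of 27 DNA repair genes was called, and all 27 lay between -0.48 and 0.17.

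The core pluripotency factors had high levels in both libraries. None of 12 genes passed the size rule, and their median was -0.26. Pou5f1, which encodes OCT4, had 715 in shCtrl and 493 in shSetd2 by its top transcript. Sox2 had 185 and 149, Nanog 241 and 207 and Dppa5a 2128 and 1589. These values were 69.0% to 86.0% of those in shCtrl, beside a common level of 89.8% for the median gene.

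Genes of the naive state, the pre-implantation form of pluripotency held by LIF, had the lowest median of all 54 lists, at -0.65, or -0.51 relative to all genes. Of 22 genes 3 were lower and 0 higher by the size rule, against 1.7% lower and 0.706% higher over all genes. Centred on the median of all genes, 1 of the 3 still passed. Tcl1 (NM_009337, chr12:106454965-106460947), a cofactor of the AKT kinase, had 81.9 in shCtrl and 35.5 in shSetd2, which differ by -1.19. Tfcp2l1 (NM_023755, chr1:120524522-120581745), a transcription factor downstream of LIF, had 48.6 in shCtrl and 21.7 in shSetd2 (-1.13). Manba, which encodes lysosomal beta-mannosidase, had 18.7 in shCtrl and 8.08 in shSetd2 (-1.12). The nuclear receptor gene Esrrb followed at 142 and 70.98, just inside the size rule at -0.99.

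The members that follow were named after their values were seen, and none of them passed the size rule. Tbx3 had 12.3 and 6.27, Nr0b1 86.2 and 46.95, Nr5a2 10.3 and 5.45, Klf2 134 and 83.6 and Fgf4 85.5 and 53.1. The list was not uniform, since 6 of 22 genes lay above the median of all genes. Among the 6 were Socs3, a target of LIF signalling, with 21.7 and 21.3, and Dppa3, an oocyte and germ cell factor, with 16.5 and 28.3. Klf4 was not among them, with 41.1 and 30.8. In E36 wild-type cells Tcl1 was at 21.3, Tfcp2l1 at 11.6 and Esrrb at 46.3, all below shSetd2, whereas Manba was at 16.6 and Klf2 at 103. For the first 3 the 3 libraries thus stood in the order shCtrl, shSetd2, E36 wild type. With E36 wild type in place of shCtrl as the control, the list's median was 0.26 relative to all genes, the opposite sign. Whether line or library differences have a part in these values was not tested.

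Genes of the primed epiblast, the post-implantation state, had a median of 0.43, or 0.56 above that of all genes. Of 13 genes 2 were higher (1 by the sum of its transcripts) and 0 lower, against 0.706% higher and 1.7% lower over all genes, and 11 lay above the median of all genes. Pou3f1 (NM_011141, chr4:124334889-124337899), the POU factor OCT6, had 3.87 in shCtrl and 14.1 in shSetd2, which differ by 1.63, and 23.5 in E36 wild type. The second was Dnmt3b, described above, which passed by its top transcript and not by its sum. Fgf5, the growth factor used to mark the epiblast, had 0.562 and 1.75 and Otx2, a transcription factor of that state, 6.605 and 11.6, with differences of 0.82 and 0.73 that did not pass. Nodal went the other way, at 19.3 and 13.9. E36 wild-type cells were above shCtrl for each of Pou3f1, Dnmt3b, Fgf5 and Otx2, with 2.102 for Fgf5 and 20.7 for Otx2. With E36 wild type as the control, the list's median was -0.26 relative to all genes, with 0 higher and 1 lower.

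**Figure D2:**
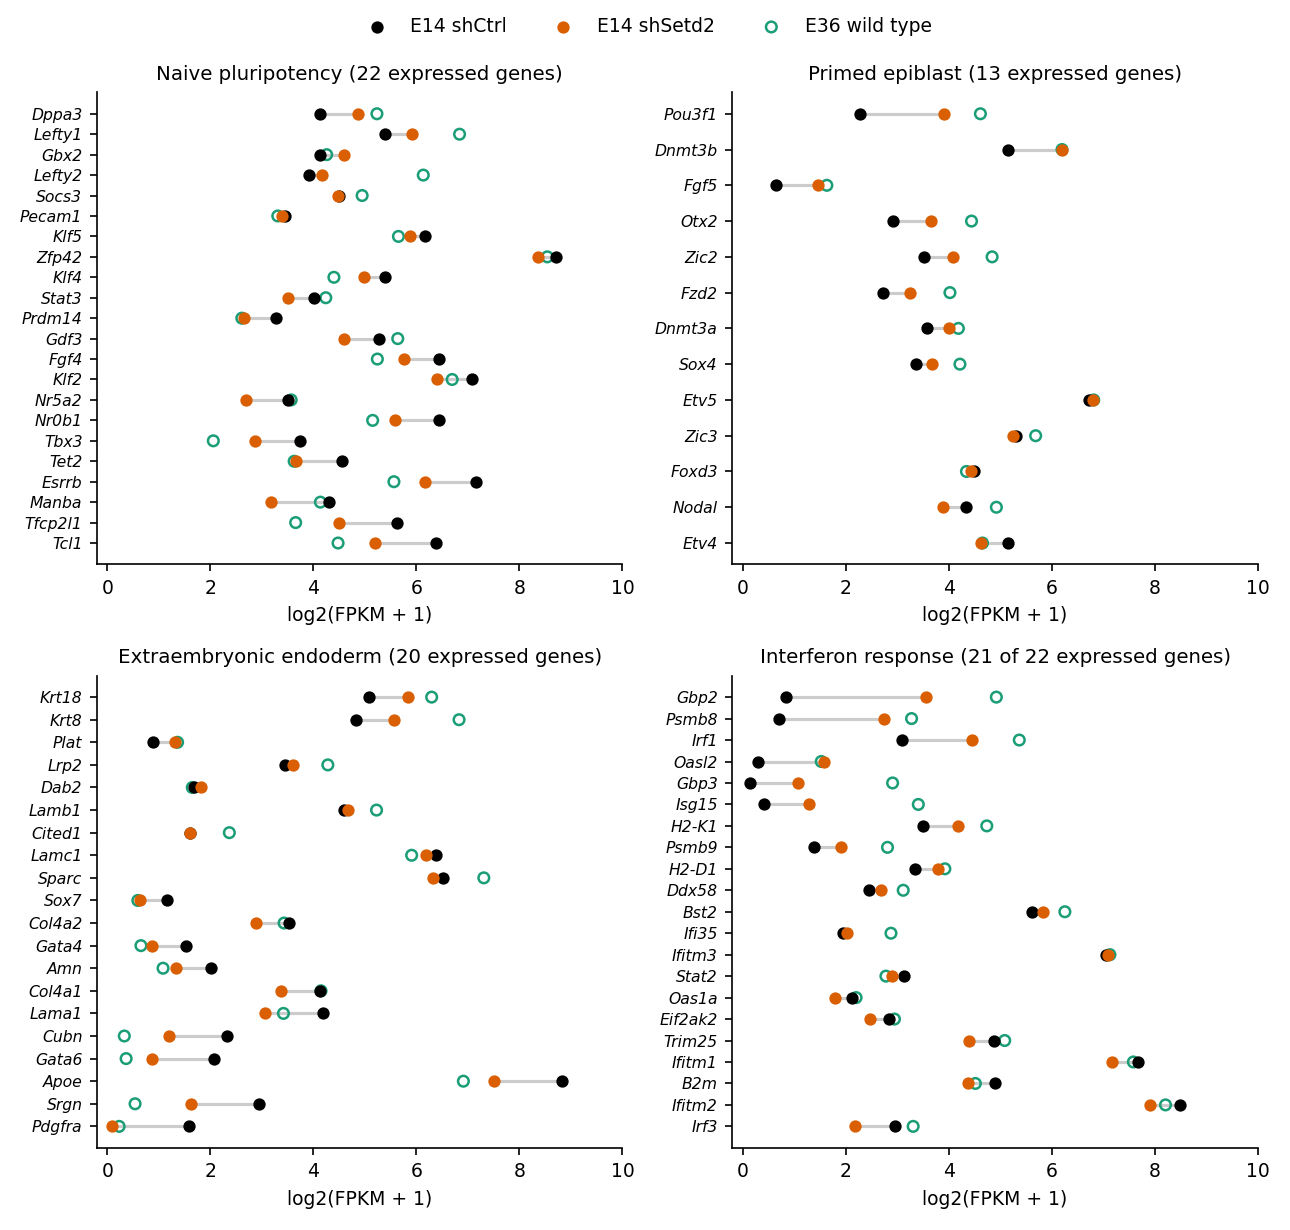
Levels of the expressed members of 4 gene lists, 1 interferon response gene aside, as log2(FPKM + 1) with 1 point per library (black, E14 shCtrl; orange, E14 shSetd2; open green, E36 wild type). Genes are ordered by the difference between the E14 libraries, which the grey bar shows. For Tcl1 and Tfcp2l1 the orange point lies between black and green, and for Gbp2, Psmb8 and Pou3f1 it lies between the low shCtrl and the higher E36 level.

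Extraembryonic endoderm genes, which mark the primitive endoderm that can arise from ES cells, were the list with the most lower calls. Of 20 expressed genes 6 were lower and 0 higher, against 1.7% lower over all genes, and the median was -0.58, or -0.45 relative to all genes. Centred on the median of all genes, 4 of the 6 still passed. Gata6, the lineage's leading transcription factor, had 3.22 in shCtrl and 0.821 in shSetd2. Gata4 had 1.88 and 0.829 and Sox17 0.857 and 0.183, within the size rule at these low levels. Apoe (NM_009696, chr7:20281593-20284515), an apolipoprotein that ES cells also express, had 454 in shCtrl and 181 in shSetd2, which differ by -1.32. Srgn, a secretory granule proteoglycan, had 6.71 and 2.06, and Pdgfra, the PDGF receptor of primitive endoderm, 2.001 and 0.0656 by its top transcript. The sum of both Pdgfra transcripts differed by -0.91. Gata6 and the top transcript of Pdgfra were under 1 FPKM in shSetd2 and counted as expressed through shCtrl alone.

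Cubn, an endocytic receptor, and Lama1, a laminin chain, completed the 6 with 3.98 and 1.28 and 17.2 and 7.38. They were named after their values were seen. The keratin genes Krt8 (27.2 and 46.4) and Krt18 (32.95 and 56.4) of the same list had higher values. In E36 wild-type cells Gata6 was at 0.287, Srgn at 0.452, Cubn at 0.256 and Apoe at 119, so shCtrl was the highest of the 3 libraries for all 4. With E36 wild type as the control 1 gene was higher and 1 lower, and with a minimum of 5 FPKM 3 were lower and the list's median was -0.04 relative to all genes. In bulk RNA, fewer cells of a type and less RNA per cell cannot be told apart. Fgfr3, which marks primitive endoderm in the embryo, had 0.215 and 0.858 by its top transcript and a difference of 0.16 by the sum of its 5.

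Other lineage lists had few calls, to be read beside 0.706% higher and 1.7% lower over all genes. None of 14 neural progenitor genes passed the size rule, although their median of 0.43 was 0.56 above that of all genes. The intermediate filament gene Nes had 2.24 and 5.25, Sox11 3.45 and 7.21 and Sox3 0.8595 and 2.21. Sox1, the earliest neural member of that family, had 3.15 and 2.84, and Pax6 had 1.64 and 2.02. Nes was at 23.6 in E36 wild type. With E36 wild type as the control the list's median was -0.45 relative to all genes, the opposite sign, with 3 lower, and after rescaling to equal totals 2 were higher. Of 13 neuronal genes 1 was lower, Stmn3, a tubulin-binding stathmin (14.2 and 6.004). Among 6 cardiac and lateral mesoderm genes, Myl7, the atrial light chain, was lower (5.44 and 1.77), while the smooth muscle genes Acta2 (10.1 and 19.2) and Myl9 (2.15 and 4.802) differed by 0.86 and 0.88.

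None of 24 epithelial, 18 trophoblast, 18 fibroblast, 6 endothelial and blood, 26 germ line and 4 definitive endoderm genes was called. The epithelial and trophoblast medians were nonetheless 0.36 and 0.41 above that of all genes. Against E36 wild type the epithelial median was -0.58 relative to all genes, the opposite sign, with 10 lower. Krt7, a simple epithelial keratin, had 3.81 and 7.24, and Esx1 and Rhox6, homeobox genes of the X chromosome, had 2.23 and 4.91 and 7.93 and 14.8. Col1a2, a collagen of fibroblasts, had 0.559 and 1.92, with 7.37 in E36 wild type. Of 39 HOX genes 4 were counted as expressed and 2 of these were higher, beside 0.706% of all genes. They were Hoxb1 (0.105 and 1.55) and Hoxb2 (0.311 and 1.71), neighbours at the early end of the Hoxb cluster. Both were under 1 FPKM in shCtrl and counted as expressed through shSetd2 alone, so the filter had a part in this count. Both remained under 2 FPKM, and in E36 wild type they were at 0.268 and 0.392. Of 17 Polycomb target transcription factors, Gata6 was the 1 called, beside 1.7% lower over all genes. The remaining members stayed between -0.87 for Tbx3 and 0.69 for Irx3 (0.4297 and 1.301).

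Interferon response genes held the highest differences of the comparison among genes with at least 5 FPKM, small RNA genes and numbered loci aside. Of 40 listed genes 22 were expressed, of which 4 were higher and 0 lower, beside 0.706% higher over all genes. Among these 4, Gbp2, Psmb8 and Oasl2 were under 1 FPKM in shCtrl and counted as expressed through shSetd2 alone. The filter thus had a part in this count. The same count was obtained with summed transcripts (4 higher of 24, beside 0.642% higher and 1.38% lower over all genes summed), and 6 passed when centred on the median of all genes. Gbp2 (NM_010260, chr3:142283627-142300972), an interferon-inducible GTPase, had 0.791 in shCtrl and 10.7 in shSetd2, which differ by 2.71. Psmb8 (NM_010724, chr17:34335140-34338399), a catalytic subunit of the immunoproteasome, had 0.624 in shCtrl and 5.67 in shSetd2 (2.04). Irf1 (NM_008390, chr11:53583516-53591876), a transcription factor induced by interferon gamma, had 7.58 in shCtrl and 20.8 in shSetd2 (1.35), and 8.68 and 21.8 summed over 3 transcripts. Oasl2, an oligoadenylate synthetase-like protein, had 0.222 and 1.99 (1.29).

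Outside the list, 2 more interferon-inducible GTPase genes were among the 15 largest increases, Gbp2b (0.498 and 6.04) and Irgm1 (1.41 and 5.34). Gbp2 and Gbp2b are similar neighbouring genes on chromosome 3, so the division of reads between them is uncertain. Called genes of antigen presentation, named after their values were seen, were Tap2, a peptide transporter (0.402 and 1.95), Erap1, a peptide-trimming protease (0.709 and 2.62), and the class I gene H2-Q8 (listed at 3.63e-05 and 1.71), one of a family of near-identical copies. Tap2, Erap1, H2-Q8 and Gbp2b were under 1 FPKM in shCtrl and counted as expressed through shSetd2 alone, so the filter had a part in these calls. The rest of the list did not move together. Isg15, a ubiquitin-like modifier, had 0.339 and 1.45 and H2-K1 10.4 and 17.2. Ifitm3 had 131 and 136 and Stat2 7.73 and 6.42, while Irf3, the sensor pathway's factor, had 6.76 and 3.55 and B2m, the light chain of class I molecules, 28.98 and 19.8.

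In the E36 wild-type library, which carries no hairpin, Gbp2 was at 29.4, Gbp2b at 20.8, Psmb8 at 8.701, Irf1 at 40.4, Irgm1 at 16.2 and Oasl2 at 1.88. Of the 3 libraries shCtrl was the lowest for each of the 6 genes, and shSetd2 lay between the others for all but Oasl2. With E36 wild type as the control 0 genes of the list were higher and 6 lower, and its median was -0.29 relative to all genes. Whether the hairpin vector, the line or Setd2 bears on these genes was not tested.

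Interferon acts through short elements near the gene start, and promoter sequences are shown for 4 of these genes that hold a match to one. Windows run from 250 bases before to 50 after the start, from RefSeq on GRCm38.p6. The 2 elements searched on both strands were GAAANNGAAA, the core of the interferon-stimulated response element, and TTCNNNGAA, the gamma-activated site, and they were chosen after the interferon genes were seen. The stretches below are 100 bases each, 5′ to 3′ on the gene's strand, with the matches in capitals. They lie at chr3:142620558-142620657, plus strand (Gbp2), chr3:142594664-142594763, plus strand (Gbp2b), chr11:53769878-53769977, plus strand (Irf1) and chr17:34198052-34198151, plus strand (Psmb8).
Gbp2: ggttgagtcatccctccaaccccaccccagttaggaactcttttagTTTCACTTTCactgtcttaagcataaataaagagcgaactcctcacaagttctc
Gbp2b: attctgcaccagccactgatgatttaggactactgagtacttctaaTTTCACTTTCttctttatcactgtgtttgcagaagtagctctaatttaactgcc
Irf1: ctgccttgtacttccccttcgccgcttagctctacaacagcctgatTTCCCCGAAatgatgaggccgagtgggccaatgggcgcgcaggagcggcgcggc
Psmb8: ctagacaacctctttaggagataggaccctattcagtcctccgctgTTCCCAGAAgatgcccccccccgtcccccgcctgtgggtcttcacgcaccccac
Gbp2 and Gbp2b carry the same letters of the first element, read on the other strand, starting 59 and 137 bases before the gene start. Irf1 and Psmb8 carry the second, starting 90 and 97 bases before it. Oasl2, also called in the list, held neither in its window, nor did the window of another Irf1 start or those of the called genes Nmi and Trafd1.

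Over 27025 genes with a promoter window, 3.99% held the first element and 9.55% the second. Among expressed coding genes the shares were 3.39% and 8.01% of 9230. Of 30 higher coding genes with a window, 6 held the first element (20%) and 4 the second (13.3%), and of 97 lower genes 6 (6.19%) and 4 (4.12%). Of 21 expressed interferon genes, called or not, 11 held the first (52.4%) and 7 the second (33.3%). Shares of 4 other elements are given as a description, with no test of a difference. All shares are of genes with a match in any of their windows. The 30 higher genes had 44 windows, the 97 lower genes 145 and the 9230 expressed genes 11744, so called genes had more windows each. TATAAA was in 23.3% of higher, 22.7% of lower and 8.49% of expressed genes, and in 15.9%, 15.9% and 6.97% of their windows. The median CpG count of a window was 11 for higher, 18 for lower and 22 for expressed genes. For GGGCGG the shares of genes were 53.3%, 63.9% and 70.4%, for CCAAT 53.3%, 43.3% and 44.0%, and for CACGTG 10%, 9.28% and 12.3%. A match is a run of letters and not a bound site.

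Signalling genes had scattered calls. Of 17 Wnt genes 2 were higher and 2 lower, beside 0.706% higher and 1.7% lower over all genes. Lef1, a transcription factor of the pathway, had 2.51 in shCtrl and 8.47 in shSetd2 (1.43), with 9.24 in E36 wild type. The ligand gene Wnt8a had 0.152 and 1.51 and counted as expressed through shSetd2 alone. The receptor gene Fzd5 had 11.9 and 4.04 by its top transcript and a difference of -0.87 by its sum, and the secreted antagonist gene Sfrp1 had 20.5 and 8.86. Axin2, a common readout of Wnt activity, named after its value was seen, had 1.98 and 2.64. In the Nodal and Activin list of 15 genes, the activin subunit gene Inhbb was lower (8.28 and 2.67), and Lefty1, a Nodal antagonist, had 40.7 and 58.9. None of 26 FGF and ERK, 13 BMP, 13 Notch or 17 immediate early genes was called. Spry4, a feedback inhibitor of ERK, had 38.3 and 24.8, and Id3, a BMP target, 30.9 and 50.9. Among 12 retinoic acid genes 1 was higher, the binding protein gene Crabp2 (4.93 and 12.3).

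Of 27 imprinted genes, 1 was higher and 0 lower, beside 0.706% higher and 1.7% lower over all genes, and the median was 0.24, or 0.38 above that of all genes, with 24 of 27 above it. The growth factor gene Igf2 had 9.41 in shCtrl and 22.3 in shSetd2 by its top transcript, and the sum of its 3 transcripts differed by 0.94. Peg10 had 92.2 and 166 and Nnat 3.12 and 6.905, both expressed from the paternal allele. Impact, also paternally expressed, had 101 and 63.2. The imprinted list's median was 0.15 relative to all genes, with 1 higher and 5 lower, when E36 wild type was the control. None of 16 genes of the 2-cell-like state, a rare form in ES cultures, was called, but their median was 0.35 and 14 lay above the median of all genes. Zscan4c, a telomere regulator of that state, had 42.05 and 61.3, and Zscan4d 28.8 and 42.8, with 19.02 and 13.8 in E36 wild type. Against E36 wild type the list's median was 1.67 relative to all genes, with 11 higher. These genes are near-identical copies, so their separate values are uncertain.

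Stress and cell cycle lists had few calls. None of 28 p53 targets, 39 cell cycle genes, 6 inhibitors of cyclin-dependent kinases, 32 genes of the integrated stress response, 20 of the unfolded protein response, 19 heat shock or 25 oxidative stress genes was called. Bax, a p53 target, had 160.5 and 124, and Cdkn1a, which encodes p21, 5.902 and 4.401. Nupr1, a stress-induced chromatin factor, differed most in these lists, with 57.99 and 30.2 (-0.92) and 3.48 in E36 wild type. Of 24 apoptosis genes 1 was higher by its top transcript, beside 0.706% of all genes. It was Bcl2l11, which encodes BIM (2.003 and 5.22), and its summed difference was 0.54. None of 24 replication-dependent histone genes was called. Their transcripts lack poly(A) tails, and the library kit selects poly(A) RNA.

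Metabolic lists had few calls. None of 34 respiratory chain genes and none of 46 ribosomal protein genes was called, but 2 members of each list lay above the median of all genes, and the medians were -0.30 and -0.28. Sdhb, a succinate dehydrogenase subunit, had 79.1 and 51.6, and Rplp0 2236 and 1636. Relative to all genes the medians of these lists were -0.17 and -0.15, and that of 30 lysosome and autophagy genes was -0.23. They were 0.14, 0.13 and 0.34, the opposite sign, with E36 wild type as the control. Of the lysosome and autophagy genes 1 was lower, beside 1.7% of all genes. The called gene was Tfeb, the transcription factor of lysosome genes, by its top transcript (10.5 and 4.56), and its summed difference was -0.60. The hexosaminidase gene Hexa (42.7 and 22.96) and the progranulin gene Grn (50.6 and 28.1) differed by -0.87 and -0.83. Of 21 glycolysis genes Pgam1 was the 1 called, with 577 in shCtrl and 240.0 in shSetd2 and 542 in E36 wild type. Reads of near-identical Pgam1 copies could have been divided differently, so the value is uncertain. None of 31 lipid synthesis, 21 hypoxia and 21 one-carbon genes was called, and Tdh, the threonine dehydrogenase of mouse ES cells, had 71.8 and 43.3. Of 15 expressed housekeeping genes none was called.

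**Figure D3:**
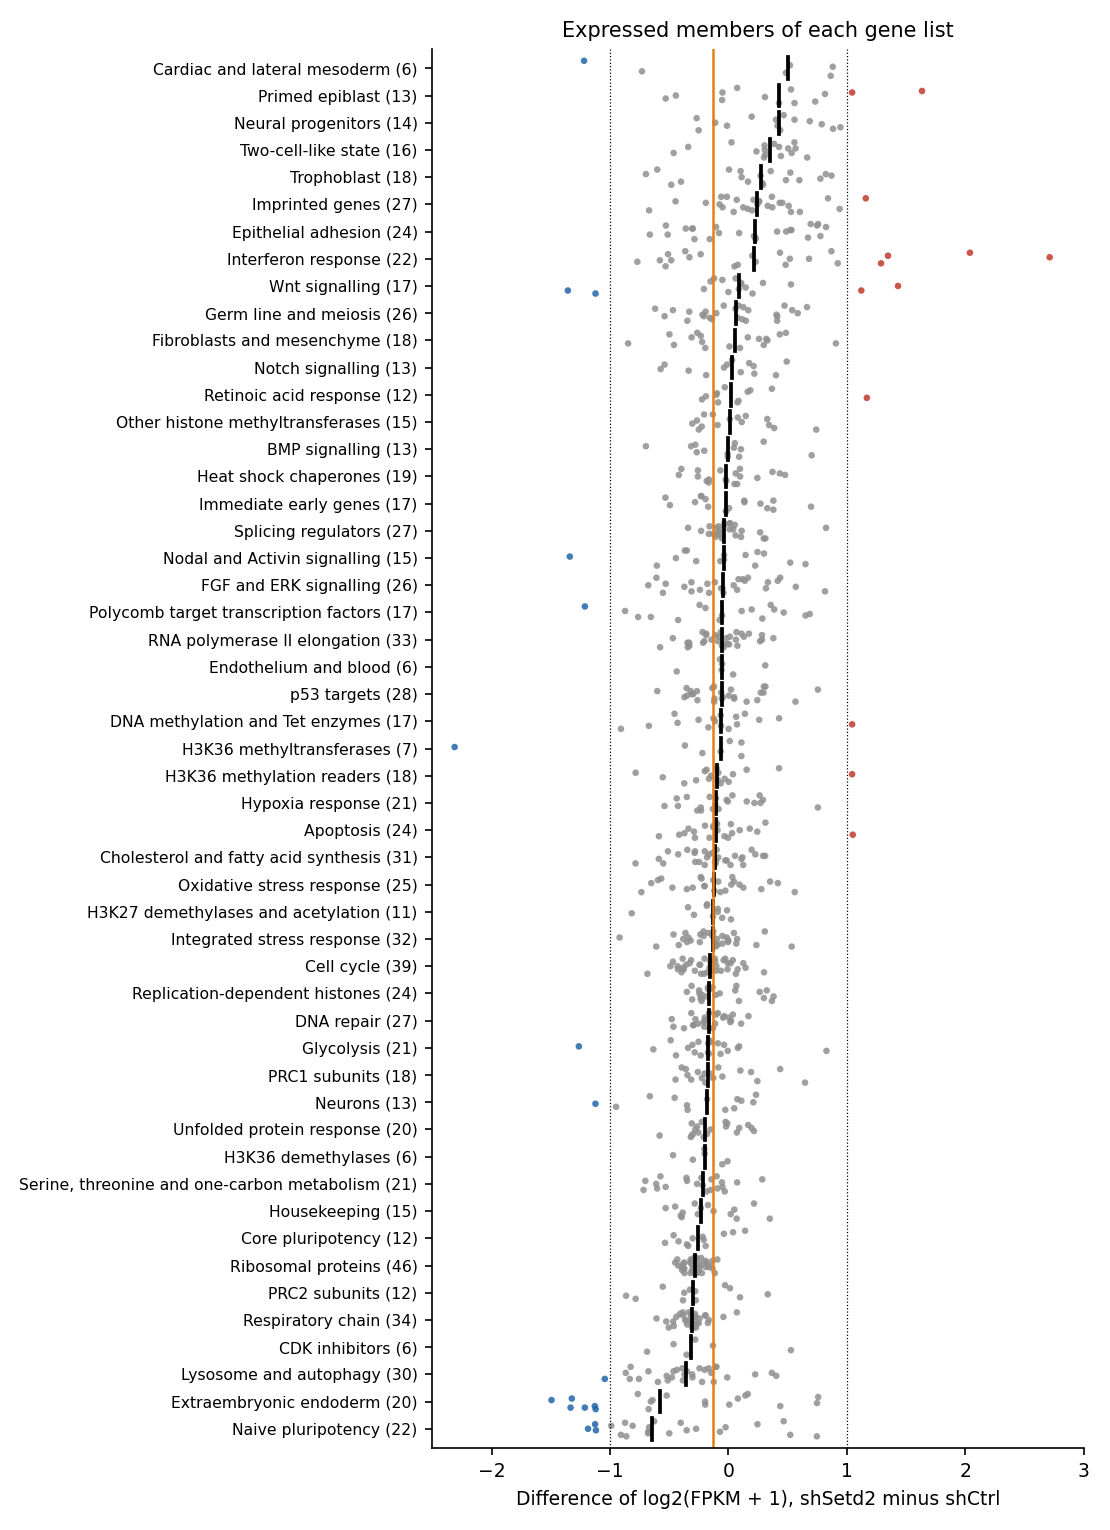
Differences of log2(FPKM + 1), shSetd2 minus shCtrl, for the expressed members of the 51 lists with at least 6 of them (number in brackets). The black bar is the list's median, the orange line the median of all expressed genes (-0.13), and dotted lines mark a difference of 1 in size. Naive pluripotency and extraembryonic endoderm lie lowest, and the highest single points are interferon response genes.

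Across all 54 lists, 36 had no member past the size rule. Medians lay at least 0.3 above that of all genes in 9 lists and at least 0.3 below it in 2, the naive and the extraembryonic endoderm lists. The 9 were the primed epiblast, trophoblast, neural progenitor, cardiac and lateral mesoderm, epithelial, 2-cell-like, HOX, interferon and imprinted lists.

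The largest decreases after Setd2 were in genes of varied function. Spink1 (NM_009258, chr18:43887723-43896891), a trypsin inhibitor, had 22.9 in shCtrl and 5.25 in shSetd2, which differ by -1.93, and 26.6 in E36 wild type, so it was low in shSetd2 alone of the 3. The aspartic protease gene Napsa had 11.9 and 2.77, and Parvb, which links integrins to actin, had 36.3 and 10.7. Cpt1a, which admits fatty acids to mitochondria, had 22.4 and 7.59, the phospholipid transfer protein gene Pltp 48.1 and 17.2, and Apoc1, a neighbour of Apoe, 51.7 and 19.3. In E36 wild type these were at 1.27 (Napsa), 10.1 (Parvb), 5.21 (Cpt1a), 10.997 (Pltp) and 22.7 (Apoc1), and shCtrl was the highest of the 3 libraries for each. The tetraspanin gene Cd37 had 6.74 and 1.56, Fam25c 88.99 and 30.2, the calcium-binding gene S100a13 18.3 and 5.81, the septin gene Septin1 92.5 and 34.5 and the muscle fusion peptide gene Mymx 30.4 and 10.98. Their E36 wild-type levels were 2.81 (Cd37), 52.6 (Fam25c), 2.90 (S100a13), 20.5 (Septin1) and 9.09 (Mymx), with shCtrl again the highest for each. Sirt3 and Dusp27 belong to this group by their top transcript only, since their sums differed by -0.53 and -0.54.

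The largest increases outside the interferon genes were led by Pim2 (NM_138606, chrX:7455432-7460558), a survival kinase gene, with 18.4 in shCtrl and 69.2 in shSetd2 (1.86) and 56.7 in E36 wild type. Platr5, a long non-coding RNA of ES cells, had 6.996 and 24.1 and was at 3.96 in E36 wild type, so it was high in shSetd2 alone. Pkdcc, a secreted kinase gene, had 2.38 and 6.91, Car4, a carbonic anhydrase gene, 5.53 and 14.2, and Spata45 1.85 and 5.13. Selenop, a selenium carrier, had 2.57 and 7.18 by its top transcript and a summed difference of 0.72. The E36 wild-type levels were 5.88 (Pkdcc), 14.1 (Car4), 4.72 (Spata45) and 5.61 (Selenop). Of the 3 libraries shCtrl was the lowest for each of them and for Pim2. At the size rule, 10 higher genes lay within 0.1 inside and 25 within 0.1 outside, and 40 lower genes within 0.1 inside and 51 outside.

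Transcript shares, the part of a gene's summed FPKM held by each transcript, were examined in 1787 genes with several transcripts and at least 5 summed FPKM in both libraries. The median of the largest share change per gene was 4.98 percentage points, and 67 genes (3.75%) moved by at least 25 points. In 66 of the 67 the summed level stayed within the size rule. Pus10, a pseudouridine synthase gene, changed most. Its transcript NM_001033654 held 0.00835% of the sum in shCtrl, 63.3% in shSetd2 and 65.9% in E36 wild type, while the sum was 13.5 and 13.3 FPKM in the E14 libraries. In Fancg, a Fanconi anaemia gene, NM_053081 held 43.9%, 99.99% and 87.2% in the same order, and in the non-coding RNA Kantr NR_040270 held 24.4%, 79.6% and 60.0%.

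In Sirt3, a mitochondrial deacetylase gene, NM_001127351 held 78.0%, 27.5% and 38.1%. Abr had NM_198894 at 92.1%, 42.8% and 15.0%. The glycolytic gene Pfkm had NM_001163487 at 37.8%, 84.1% and 83.6%. In Asb8 and Dcaf11, which encode parts of ubiquitin ligases, NM_001170710 moved from 36.1% to 77.1% and NM_001199009 from 32.3% to 75.9%, with 60.4% and 51.9% in E36 wild type. The deposited estimates carry no error, so shares of weakly expressed genes cannot be ranked by precision.

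**Figure D4:**
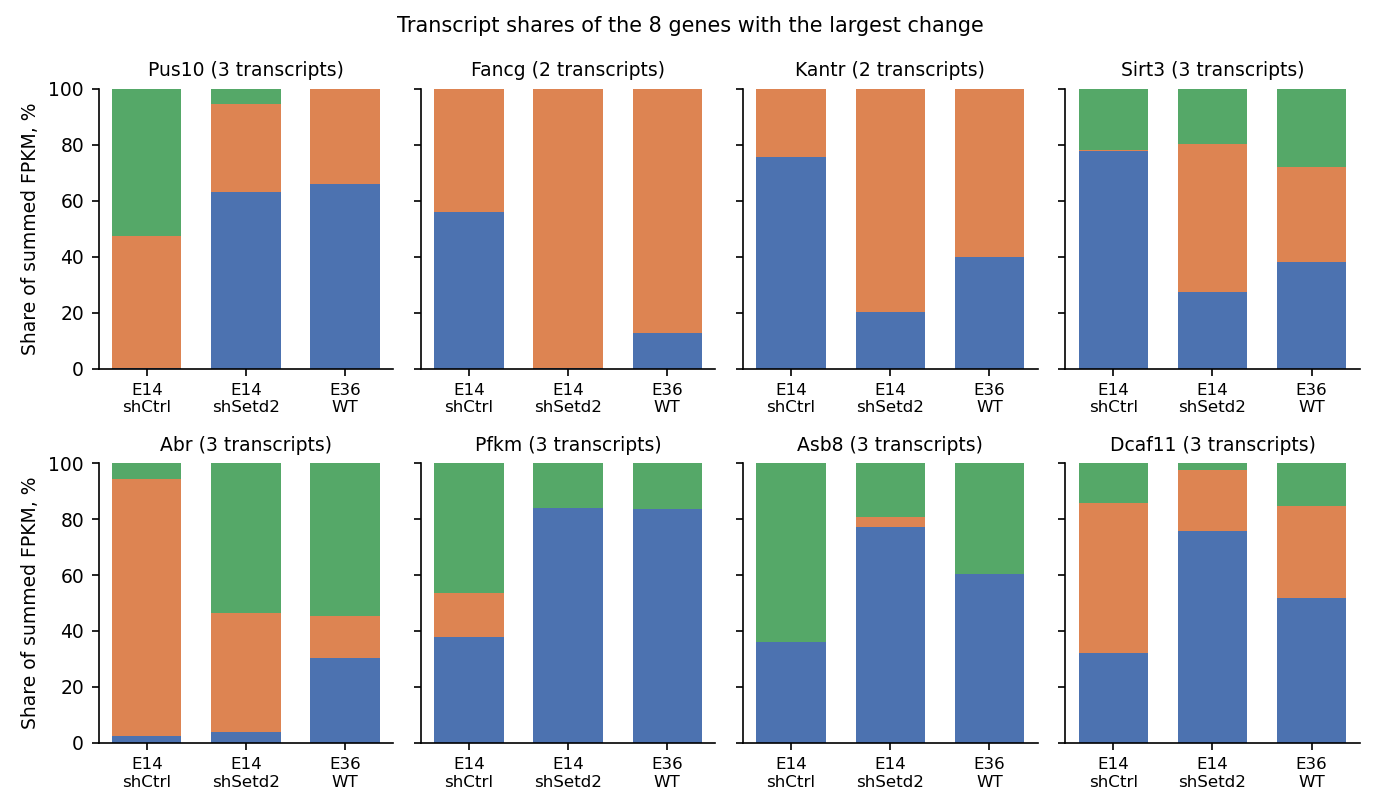
Share of each transcript in its gene's summed FPKM (percent, stacked, 1 colour per transcript) in E14 shCtrl, E14 shSetd2 and E36 wild type, for the 8 genes with the largest change between the E14 libraries. In all 8 genes the shSetd2 bar resembles that of E36 wild type more than that of shCtrl. The 8 were picked for a large distance between the E14 bars, a choice that favours this.

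Non-coding genes were called more often than coding genes, with 45 higher (5.65%) and 83 lower (10.4%) of 796. Small RNA genes made up most of them, at 39 higher and 75 lower of 222, and 87 of these 114 were listed at 0 in 1 library. Of the other 574 non-coding genes 6 were higher and 8 lower.

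Median differences varied little with level and with the span of the locus. In 5 bins of coding genes by mean FPKM, the median went from -0.08 in the lowest bin to -0.15 in the highest. The constant added to FPKM before the logarithm shrinks differences at low levels. A ratio shared by all genes would thus also give a smaller median in the lowest bin. Whether the ratio itself depended on level was not tested. By locus span, the median went from -0.18 in the shortest bin (up to 8127 bases) to -0.09 in the longest (from 66525 bases). That step of 0.09 is smaller than the distance between the 25th and 75th percentiles within any bin. On the 19 autosomes the medians lay between -0.18 and -0.09, and the X chromosome was at -0.03. The Y chromosome had 4 expressed genes.

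**Figure D5:**
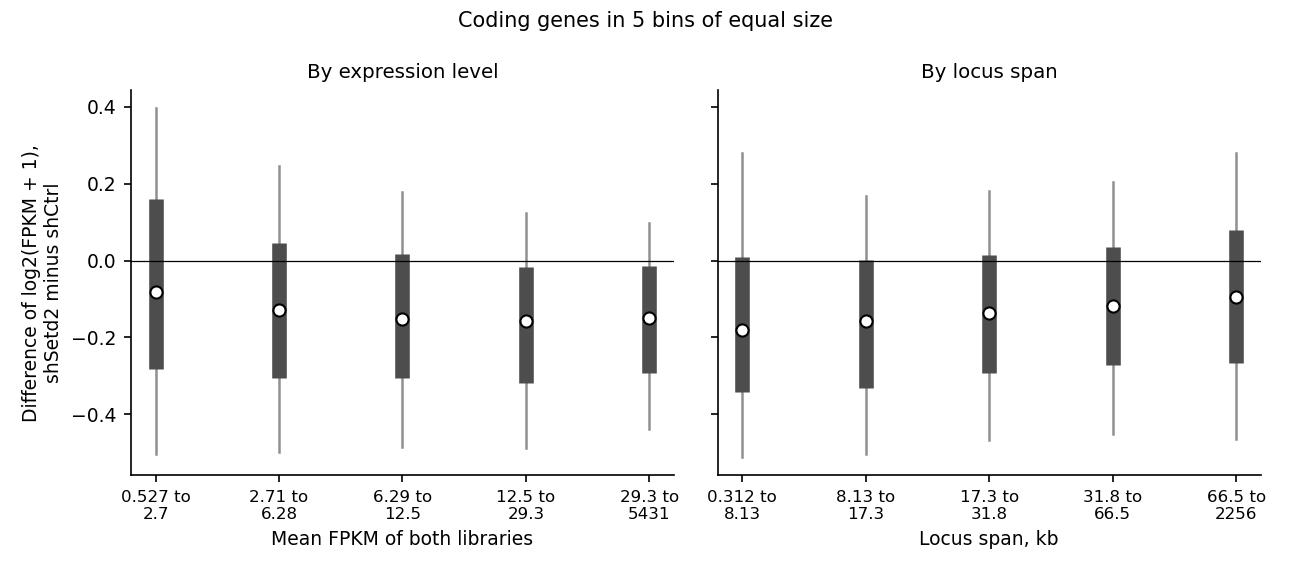
Differences of log2(FPKM + 1), shSetd2 minus shCtrl, for coding genes in 5 bins of equal size by mean FPKM (left) and by locus span in kilobases (right). White points are medians, thick bars the 25th to 75th and thin lines the 10th to 90th percentiles. Medians stay between -0.18 and -0.08 in all bins.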

How the data were processed

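Per the labels' protocols, Trizol was used for extraction and the TruSeq RNA kit (version 2) for library preparation. The kit does not mark strand, so a gene and its antisense partner cannot be told apart. The authors aligned reads with TopHat and estimated FPKM with Cuffdiff on mm9, per the submitters' processing notes. Their options and the scaling used are not stated in the sources given here. An exact 0 in the deposited FPKM table is reported as listed at 0.

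Accessions were matched to symbols through RefSeq (GRCm38.p6) for 29300 of 29851 transcripts, and the rest kept their accession. Each gene was represented by its most abundant transcript (mean of 6 libraries). Coordinates are those of the table, counted from 1, and span the whole locus. Differences of log2(FPKM + 1) were computed in Python 3.11.15 with pandas 2.3.3 and numpy 2.4.6, and the size rule was checked on simulated data. Named genes are Setd2, the expressed H3K36 genes, core Polycomb and pluripotency genes, 4 endoderm genes, the 15 largest changes each way at 5 FPKM or more (without small RNA genes and numbered loci), up to 4 members per list, the 8 largest share changes and the neighbours of Setd2. The members, the 54 gene lists and the named genes were chosen with earlier results of these data known. Which of them are printed, and other members of the lists named for contrast, were decided after the values were seen. Depth was estimated from transcripts at or below 0.1 FPKM over loci of at least 2000 bases. Some genes of the lists are counted in them and not reported here by name.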

Additional observations from a re-analysis of the deposited data

How the results depend on the processing

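Setd2 stayed lower past the size rule under all 11 alternatives, between -2.65 and -1.52. It has 1 coding transcript, so the filters and sums could not change its value of -2.31. With a pseudocount of 0.1, 204 genes were higher and 366 lower (413 and 712 transcripts), and with 5 it was 47 and 104 genes (55 and 116 transcripts). A minimum of 5 FPKM left 84 transcripts higher and 207 lower. Coding transcripts alone gave 42 and 129 genes, and their sums, chosen after the data were seen, 36 and 98. After equal upper quartiles 137 genes were higher. The median of all genes was 0.0039 after equal totals, 0.0022 by the median of ratios, 0.0241 after equal upper quartiles and -0.0065 with no filter. With E36 wild type in place of shCtrl, 251 genes were higher and 778 lower (402 and 1131 transcripts).

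That control shares the shSetd2 library and differs from it in line and hairpin. Of 51 named genes past the size rule, 25 then had the opposite sign, 19 others no longer passed and 7 were kept. No sign changed under the other alternatives. A pseudocount or a filter cannot change a sign, and the rescalings were small beside the size rule, so most of these had no means to do so. Of the 51 genes, 30 no longer passed with a pseudocount of 5, 12 with summed transcripts (11 of 49 over coding transcripts) and 5 under each rescaling. With a pseudocount of 5, 1 extraembryonic endoderm gene was lower and 2 interferon genes were higher. The 25 were Abr at 0.66, Apoe 0.60, Bcl2l11 -0.69, Cpt1a 0.47, Gata6 0.50, Gbp2 -1.37, Gbp2b -1.63, Inhbb 0.16, Irf1 -0.92, Irgm1 -1.44, Lef1 -0.11, Mymx 0.25, Napsa 0.73, Parvb 0.0755, Pltp 0.60, Pou3f1 -0.70, Psmb8 -0.54, S100a13 0.80, Septin1 0.72, Sfrp1 0.46, Srgn 1.08, Stmn3 0.66, Tcl1 0.71, Tfcp2l1 0.85 and Tfeb 0.0633. The cause was not tested. With 10 summed FPKM 25 genes moved a transcript share by the 25 points. No paired analysis was possible because each group has 1 library.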
